A study of Mus musculus with 11 samples.

Results

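The vascular endothelial growth factor (VEGF) genes described here are 9 of the 27179 rows of a gene count table made from sorted mouse bone marrow endothelium. They were taken by Entrez gene ID as the genes for the VEGF receptors (*Kdr*, *Flt1*, *Flt4*), the neuropilins (*Nrp1*, *Nrp2*) and the ligands (*Vegfa*, *Vegfb*, *Vegfc*, *Pgf*). All 9 were found, and all 9 passed the filter on low counts that left 11949 genes to test.

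RNA sequencing was done on endothelial cells with high CD31 and high endomucin (CD31hi EMCNhi), the phenotype of type H capillaries, which join arteries to sinusoids near growing bone. By imaging, the study found that vessels of this phenotype inside lesions lacked the osteoprogenitors and pericytes seen at type H vessels. It proposes that the remodelled network mixes type H and sinusoidal vessels. The BALB/c mice were 8 to 10 weeks old. Burdened mice carried 4T1.2 cells, a BALB/c mammary carcinoma line with a tendency to colonise bone, labelled with red fluorescent protein. Their marrow was microdissected into fluorescent areas (met) and neighbouring areas without fluorescence (non-met). Healthy mice of matched age gave the controls. There were 3 met, 6 non-met and 2 control libraries, from 4 pools of burdened and 2 pools of healthy mice with 1 to 4 mice each. The met libraries 1, 2 and 3 came from burdened pools 2, 3 and 4. Of the non-met libraries, 1 and 5 were from pool 1, 2 and 6 from pool 2, and 3 and 4 from pools 3 and 4. Such libraries share animals, so the P values below measure the spread between libraries, part of which may be technical. The route by which the tumour cells of these mice were given is not stated in the sources used here. The sort is a gate on surface proteins, and the cells of a met area were not tested for contact with tumour cells.

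VEGF ligands are secreted dimers that bind receptor tyrosine kinases on endothelium. *Kdr* encodes VEGFR2, the main receptor through which VEGFA drives endothelial growth, migration and permeability. *Flt1* encodes VEGFR1, which binds VEGFA, VEGFB and placental growth factor tightly but signals weakly, and which is also made in a soluble form that traps ligand. *Flt4* encodes VEGFR3, the receptor for VEGFC, known from lymphatic endothelium and also present on sprouting and fenestrated blood vessels, marrow sinusoids among them. Neuropilins are co-receptors that bind VEGFs and class 3 semaphorins. In bone, VEGFA from osteoblast lineage cells and chondrocytes is known to couple vessel growth to bone formation, and VEGFR2 and VEGFR3 are both used as markers of marrow sinusoids.

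Total counts were 5029771 and 19539761 in the controls, 733342 to 7683451 in non-met and 2547520 to 8771860 in met libraries. A count of 3 reads, taken as the floor of detection, stood for 0.147 CPM (counts scaled to a common library total) in the deepest library, control 1, and for 5.43 CPM in the shallowest, non-met 4. Endothelial transcripts were present in every library, and so were transcripts of other cells. The 16 general endothelial markers summed to 10236 and 14089 CPM in the controls, 11821 to 19233 CPM in non-met and 16026 to 20223 CPM in met libraries, so that all met sums exceeded both controls. None of the 16 was at 0 in every library of a group. *Pecam1* (CD31) was at 972 and 1247 CPM in the controls, 1131 to 2427 CPM in non-met and 2297 to 3162 CPM in met libraries, and *Emcn* lay between 351 and 1361 CPM. The 16 markers of stromal, osteolineage and perivascular cells summed to 4309.8 and 11495 CPM in the controls and to less in most of the burdened libraries, 1358 to 4315 CPM in non-met and 586 to 3603 CPM in met. In bulk samples, fewer cells of a type and less RNA per cell cannot be told apart.

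The genes are placed on the mouse genome build GRCm38, with gene spans from RefSeq and strands, exons and transcripts from GENCODE. *Kdr* (Entrez gene 16542) is at chr5:75932827-75979072 on the minus strand and *Flt1* (14254) on the same chromosome at chr5:147561604-147726438, minus strand. *Flt4* (14257) is at chr11:49609679-49652739, plus strand. *Nrp1* (18186) is at chr8:128358591-128505476 and *Nrp2* (18187) at chr1:62703317-62818692, both on the plus strand. *Vegfa* (22339) is at chr17:46016993-46032377, minus strand, *Vegfb* (22340) at chr19:6982472-6987651, minus strand, *Vegfc* (22341) at chr8:54077532-54186454, plus strand, and *Pgf* (18654) at chr12:85166637-85177785, minus strand. GENCODE lists between 2 (*Flt4*) and 13 (*Vegfa*) transcripts per gene, and a gene's count adds all of them, so soluble and membrane forms of *Flt1*, or the heparin-binding and free forms of *Vegfa*, were not separated. Only *Nrp1* shares exon bases with another gene, 80 bases (0.818% of its exons) with the microRNA gene *Mir1903* on the same strand.

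Promoter sequences are shown for 3 of these genes, the pair of VEGFA receptors and *Vegfa* itself, so that the starts of a ligand and its receptors can be compared. Each window holds 250 bases before and 50 bases after the start given by RefSeq (GRCm38.p6), in the direction of transcription, and capitals mark matches to the motifs named after them. The RefSeq gene spans of *Kdr* and *Flt1* given above begin further upstream. The windows are chr5:75978406-75978705 (minus strand) for *Kdr*, chr5:147725962-147726261 (minus strand) for *Flt1* and chr17:46032328-46032627 (minus strand) for *Vegfa*.
Kdr: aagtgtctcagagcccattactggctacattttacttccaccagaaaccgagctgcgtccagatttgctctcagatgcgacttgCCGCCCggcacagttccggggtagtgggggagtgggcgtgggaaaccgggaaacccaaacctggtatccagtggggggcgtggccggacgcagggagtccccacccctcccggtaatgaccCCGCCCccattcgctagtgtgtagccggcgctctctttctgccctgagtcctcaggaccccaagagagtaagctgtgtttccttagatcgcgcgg
Flt1: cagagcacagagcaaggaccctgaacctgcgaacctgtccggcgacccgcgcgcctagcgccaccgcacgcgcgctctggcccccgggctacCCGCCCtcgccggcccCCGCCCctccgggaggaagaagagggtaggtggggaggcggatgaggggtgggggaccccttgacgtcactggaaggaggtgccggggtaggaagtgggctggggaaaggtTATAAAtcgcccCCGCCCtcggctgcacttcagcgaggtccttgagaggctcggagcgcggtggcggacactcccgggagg
Vegfa: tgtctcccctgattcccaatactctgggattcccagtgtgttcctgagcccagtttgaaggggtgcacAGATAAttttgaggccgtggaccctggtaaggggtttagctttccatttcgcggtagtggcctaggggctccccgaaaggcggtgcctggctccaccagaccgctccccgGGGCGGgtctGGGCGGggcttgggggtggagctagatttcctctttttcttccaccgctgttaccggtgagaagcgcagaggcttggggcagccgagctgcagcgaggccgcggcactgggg

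The searched motifs were the GC box GGGCGG, the TATA box TATAAA, the hypoxia response core ACGTG, the GATA core AGATAA and the ETS site CCGGAAG, each on both strands and with no overlap between different motifs in the windows shown. The *Kdr* window holds a pair of GC boxes, 166 and 45 bases before the start, and no TATA box. The *Flt1* window holds a TATA box 31 bases before the start and GC boxes 158, 142 and 19 bases before it, and it is the only one of the 11 windows of the 9 genes with TATAAA, which 13.6% of all 32851 mouse promoter windows of that length hold. The first *Vegfa* window holds GC boxes 72 and 62 bases before the start and an AGATAA 182 bases before it, a motif found in 11.2% of all windows. Each of the 11 windows of the 9 genes other than the second *Pgf* window holds a GC box, which 35.7% of all windows hold. The GC content is high, 60.7% for *Kdr*, 70.7% for *Flt1* and 62% for *Vegfa* against a median of 52.7%. ACGTG occurs only in a second *Vegfa* window that starts inside the gene (19.6% of all windows), and CCGGAAG in none of the 11 (8.86% of all windows). These are matches of letters, not tested sites.

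Receptors were among the most abundant transcripts of these cells and ligands were not. Levels compared between genes are given per length, in RPKM (CPM divided by the exon length in kilobases). Over the 11 libraries the median was 229 RPKM for *Kdr*, 194 for *Flt4*, 106 for *Flt1*, 93 for *Nrp1* and 60.8 for *Nrp2*, followed by 10.6 for *Vegfa*, 7.56 for *Vegfc*, 1.21 for *Vegfb* and 0 for *Pgf*. By mean log2 CPM the receptors and neuropilins ranked between the 97.9th percentile (*Nrp2*) and the 99.6th (*Kdr*) of tested genes, and the ligands between the 23.7th (*Pgf*) and the 60.6th (*Vegfa*).

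The order of the 5 receptor genes was largely kept from library to library. *Kdr* exceeded both neuropilins in 11 of 11 libraries and *Flt1* in 10 of 11. *Flt4* also exceeded both neuropilins in 11 of 11, and *Flt1* exceeded it in 1 of 11. The neighbours *Kdr* and *Flt4* were not separated, *Kdr* being higher in 7 of 11 libraries, nor were *Flt1* and *Nrp1*, with *Flt1* higher in 7 of 11. *Nrp1* was above *Nrp2* in 10 of 11.

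Of 6 lymphatic markers, 5 had no reads in most or all libraries. *Lyve1*, *Pdpn*, *Ccl21a* and *Reln* had 0 reads in all 11 libraries. *Prox1*, the lymphatic master regulator, had 0 reads in 9 libraries, 111 reads (21 CPM) in met 2 and 158 reads (18.1 CPM) in met 3. The sixth, *Mmrn1*, also made by platelets and their precursors, was alone above 0 in the controls and the non-met libraries, so the list's sum there is its own level. That sum was 235 and 398 CPM in the controls, 0 to 142 CPM in non-met and 0.44 to 81.8 CPM in met libraries, *Prox1* included. *Flt4* itself was at 1130.1 CPM in met 2 and 1190.4 CPM in met 3, inside the range of the libraries without *Prox1*. The 10 markers of sinusoidal endothelium summed to 14404 and 15363 CPM in the controls, 6635 to 14756 in non-met and 6696 to 10266 in met libraries.

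**Figure D1:**
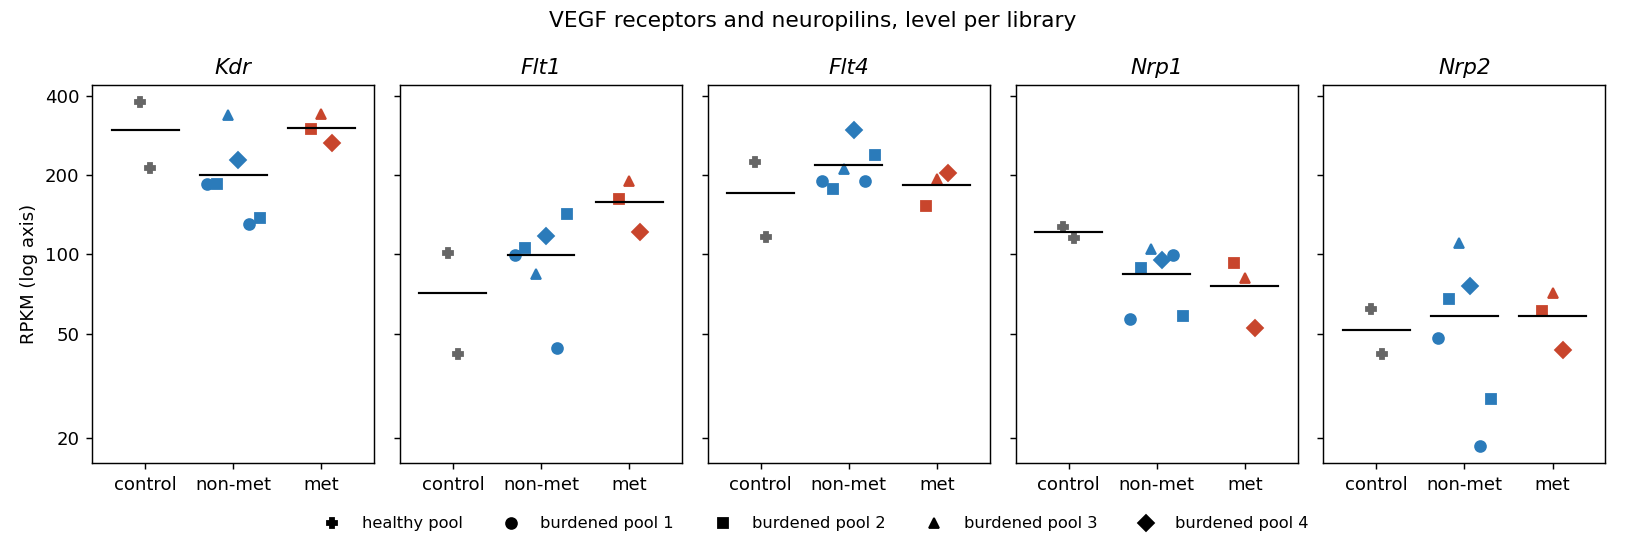
Level of the 3 VEGF receptors and the 2 neuropilins in each of the 11 libraries, in RPKM on a log axis, by group. Point shape gives the mouse pool and the line is the arithmetic mean of the group. The 3 met libraries sit above both controls for *Flt1*, as for 8.43% of tested genes. Both controls sit above all 9 burdened libraries for *Nrp1*, as for 2.39%.

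*Kdr* was high in met libraries and spread widely in the others. It was at 1639, 1865 and 1444 CPM in met libraries 1, 2 and 3, and at 2075 and 1161 CPM in the controls. In non-met libraries the lowest value was 709.9, the median 1011 and the highest 1852 CPM. The met values thus lay inside the range of the controls, and only non-met 3 reached them from the non-met group.

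*Flt1* was highest in the met libraries. It was at 1019, 1192 and 769 CPM in met libraries 1, 2 and 3, against 633 and 262 CPM in the controls. In non-met libraries it ran from 276 through a median of 647 to 899 CPM. All 3 met values exceeded both controls, as for 8.43% of tested genes, and did so with TMM, RLE or no scaling. Met 3 fell below non-met 6. The general endothelial sums of all met libraries also exceeded both controls, and their part in the *Flt1* levels was not tested.

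*Flt4* varied least of the 9 genes over the 11 libraries (SD 0.35 log2 CPM). It was at 892, 1130.1 and 1190.4 CPM in met libraries and at 1314 and 684 CPM in the controls. Non-met libraries gave 1039 to 1748 CPM with a median of 1175. The 3 groups overlapped, and the highest value was that of non-met 4, the shallowest library.

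*Nrp1*, the neuropilin that pairs with VEGFR2, was highest in the controls. The controls were at 754 and 686 CPM, and the met libraries at 551, 483 and 311 CPM. The non-met libraries ran from 337 through a median of 546 to 619.7 CPM. All 9 burdened libraries lay below both controls, with TMM, RLE or no scaling, as did 2.39% of all tested genes. The summed stromal, osteolineage and perivascular markers given above were also highest in a control and lowest in a met library, and their part in the *Nrp1* levels was not tested. *Nrp2*, which pairs with VEGFR3, showed no such order, with 503 and 339 CPM in the controls, 494, 582 and 351 CPM in met and 152 to 905 CPM (median 469) in non-met libraries.

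Ratios within a library do not depend on the scaling between libraries. The 3 ratios followed here were *Flt1* to *Kdr*, *Flt4* to *Kdr* and *Nrp1* to *Nrp2*. The *Flt1* to *Kdr* ratio, per length, was 0.196 and 0.265 in the controls and 0.463 to 0.556 in met libraries, which do not overlap. In non-met libraries it ran from 0.249 to 1.04 with a median of 0.529, a range that covers the met values. The *Flt4* to *Kdr* ratio was 0.551 and 0.591 in the controls, 0.624 to 1.74 in non-met (median 1.17) and 0.508 to 0.77 in met libraries (median 0.566). The *Nrp1* to *Nrp2* ratio was 2.06 and 2.78 in the controls and 1.14 to 1.53 in met libraries, with 0.939 to 5.32 in non-met. Within pools 2, 3 and 4, which gave both areas, the log2 ratio in met minus that in non-met was -1.35, -0.14 and -0.76 for *Flt4* to *Kdr*. It went both ways for the other pairs, at -0.51, 1.16 and -0.16 for *Flt1* to *Kdr* and -0.11, 0.28 and -0.06 for *Nrp1* to *Nrp2*. These ratios were not tested, and no share over other gene pairs was computed. Among single tested genes, 20.7% had no overlap between met and control libraries, and 11.2% were lower in met in all 3 pools.

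The ligands were patchy, abundant in some libraries and at or near 0 reads in others of the same group. *Vegfa* had 902 and 287 reads in the controls (44.1 and 50.8 CPM). In non-met libraries 1 to 6 it had 286, 865, 12, 3, 148 and 129 reads (51.5, 126, 3.73, 5.43, 78.5 and 115 CPM), and in met libraries 1 to 3 it had 1, 231 and 2 reads (0.44, 43.8 and 0.229 CPM). The 4 values above both controls were those of non-met 1, 2, 5 and 6, which come from pools 1 and 2.

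*Vegfb*, a ligand of VEGFR1, had 699 and 610 reads in the controls (34.2 and 108 CPM). Outside them it passed 5 reads only in non-met 2 (346 reads, 50.2 CPM) and met 1 (228 reads, 100.4 CPM), which come from the same pool. *Vegfc*, the VEGFR3 ligand, had 1210 and 103 reads in the controls (59.1 and 18.2 CPM), 731 in non-met 2, 16 in non-met 6 and 2 or fewer in the other non-met libraries. In met libraries 1 to 3 *Vegfc* had 115, 308 and 1 reads (50.7, 58.4 and 0.115 CPM).

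*Pgf*, placental growth factor, had 61 and 316 reads in the controls (2.98 and 55.9 CPM) and 137, 71 and 0 reads in met libraries 1 to 3 (60.3, 13.5 and 0 CPM). In the non-met group it had 24 reads in non-met 2 (3.48 CPM) and 0 in the other 5. Non-met 2 was the only burdened library besides met 2 in which all 4 ligands were above 3 reads.

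**Figure D2:**
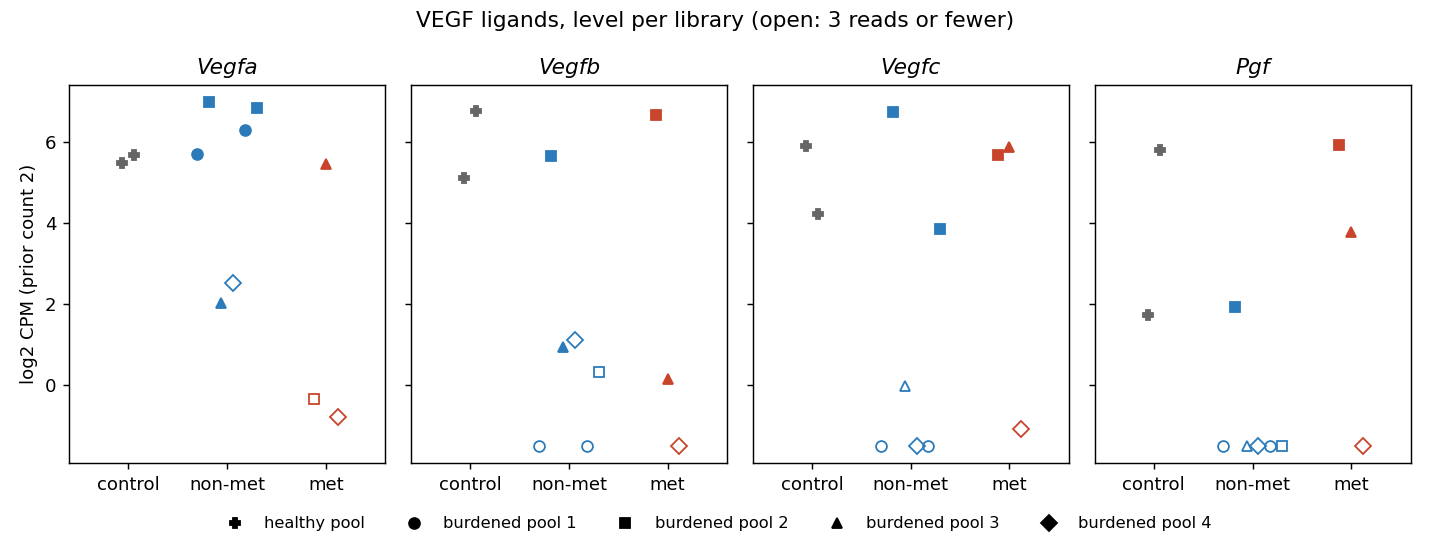
Level of the 4 VEGF ligands in each of the 11 libraries, as log2 CPM with a prior count of 2, by group and mouse pool. Open points are libraries with 3 reads or fewer, and a value of -1.49 stands for 0 reads. Both controls have every ligand above 3 reads, and each ligand has open points among the burdened libraries.

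Such patchiness was general at these levels in libraries made from few cells. Of the 3048 genes with a mean of 20 to 50 CPM, the class of *Vegfa*, *Vegfb* and *Vegfc*, 97.7% had 3 reads or fewer in at least 1 library and 100 or more in another, with a median of 4 such low libraries. Of the 1929 genes at 10 to 20 CPM, the class of *Pgf*, 98.6% did, with a median of 6. *Vegfa* had 3 low libraries, *Vegfb* and *Vegfc* 5 each and *Pgf* 6. Among the 226 genes at 500 CPM or more, which include *Kdr*, *Flt1*, *Flt4* and *Nrp1*, 0% did.

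Granulocyte transcripts moved with the high *Vegfa* values of the non-met group, although the sort gated out blood cells by the surface proteins CD45 and Ter-119. The 13 granulocyte markers summed to 3746, 2212, 3384 and 5136 CPM in non-met libraries 1, 2, 5 and 6, where *Vegfa* was at 51.5 CPM or more. They summed to 403 and 718 CPM in non-met 3 and 4, where *Vegfa* was at 3.73 and 5.43 CPM, to 95.5 to 207 CPM in met and to 157 and 359 CPM in control libraries. In the non-met group none of the 13 was at 0 throughout, while *Ltf* and *Cxcr2* were at 0 in all control and met libraries. The controls and met 2 held *Vegfa* at 43.8 to 50.8 CPM with low granulocyte sums. Monocyte and macrophage markers summed to 192 to 755 CPM in non-met, 82.8 and 126 CPM in control and 47.6 to 292 CPM in met libraries, with *C1qa*, *C1qb*, *C1qc* and *Ccr2* at 0 throughout. Stromal and perivascular markers, from cells that are known sources of VEGF ligands, summed to 4309.8 and 11495 CPM in the controls, 1358 to 4315 in non-met and 586 to 3603 in met libraries. Their part in the ligand values was not tested.

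The comparison of met with non-met areas asks how endothelium inside a lesion differs from endothelium beside it. None of the 9 genes was called by voomLmFit with sample weights (adjusted P under 0.05), where 0.418% of the 11949 tested genes were, 33 higher and 17 lower. None of the 9 had non-overlapping groups either, against 1.98% of all genes, and none had an unadjusted P under 0.05, against 7.24%. The edgeR quasi-likelihood test, DESeq2 and limma-trend also called 0 of the 9, where they called 0.142%, 2.73% and 0.0167% of genes. DESeq2 gave no adjusted P for *Vegfb* and *Vegfc* in any comparison. *Kdr* was higher in met by a fitted log2 difference of 0.48 (SE 0.251, adjusted P = 0.732), with group means of 10.68 ± 0.18 (SD, n = 3) and 10.02 ± 0.51 (SD, n = 6) log2 CPM. The unweighted difference of 0.66 had an exact two-sided permutation P of 0.0714 and a limma-trend 95% interval of 0.10 to 1.21 before any adjustment. Without control 1 the fitted *Kdr* difference was 0.51 and was called by voomLmFit (adjusted P = 0.0445).

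*Flt1* was also higher in met, by a fitted 0.47 (SE 0.24, adjusted P = 0.73) and an unweighted 0.74 (95% interval -0.05 to 1.53, exact permutation P = 0.0833). For *Flt4* the fit gave 0.10 (adjusted P = 0.905) and the unweighted means -0.24 (interval -0.77 to 0.29). Its sign varied between fits, at 0.12 with no sample weights and -0.24 with mouse pool as a fixed block. *Nrp1* differed by -0.33 (adjusted P = 0.816) and *Nrp2* by -0.17 (adjusted P = 0.948), the unweighted *Nrp2* difference being 0.22. The ligands had wide errors: -3.65 (SE 2.22, adjusted P = 0.751) for *Vegfa*, 3.12 (SE 2.37, adjusted P = 0.789) for *Pgf*, and adjusted P of 0.89 and 0.987 for *Vegfc* and *Vegfb*.

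Within the 3 pools that gave both areas, the differences rest on the same animals. *Kdr* differed by 0.91, 0.01 and 0.21 (log2 CPM, met minus non-met) in pools 2, 3 and 4, and *Flt1* by 0.40, 1.17 and 0.05. *Flt4* differed by -0.44, -0.13 and -0.55, but by 0.12 in pool 3 without TMM scaling. *Nrp1* and *Nrp2* were higher in met in pool 2 (0.37 and 0.48) and lower in pools 3 (-0.36 and -0.64) and 4 (-0.86 and -0.81). Of all tested genes, 10.6% were higher in met in all 3 pools and 11.2% lower. A pair of non-met libraries of the same pool and group differed in *Kdr* by 0.50 in pool 1 and 0.43 in pool 2, and in *Flt1* by 1.18 and -0.43, so several of the met to non-met differences were no larger than differences between libraries of one kind from one pool. *Vegfa* differed by -7.24, 3.43 and -3.30 over pools 2, 3 and 4. With mouse pool as a fixed block no VEGF gene was called, and the fitted values were 0.21 for *Kdr*, 0.74 for *Flt1* and -0.24 for *Flt4*.

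**Figure D3:**
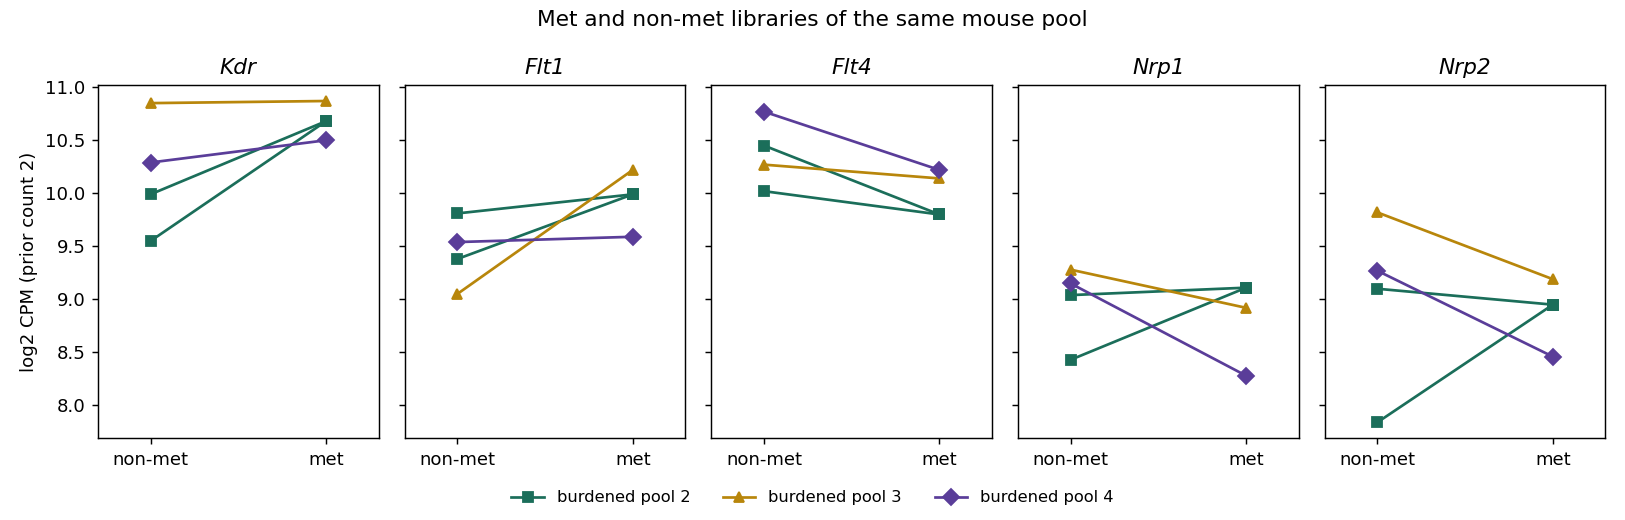
Log2 CPM (prior count 2) of the receptors and neuropilins in non-met and met libraries of the 3 mouse pools that gave both, with a line from each non-met library to the met library of its pool. Pool 2 has a pair of non-met libraries. *Kdr* and *Flt1* lines rise or stay level and *Flt4* lines drop, with some rises of 0.01 and 0.05 log2.

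The comparison of met areas with healthy bone called 2 of the 9 genes, *Kdr* and *Nrp1*, both lower in met, where 0.511% of tested genes were called lower and 1.2% in either direction. An earlier analysis of these counts divided the libraries into 2 sets, the controls with non-met 1 and 2 and the other 7 libraries. No label or method used here says what the sets are, so a value with a term for them shows only what changes when that division is modelled. All met libraries are thus in one set and both controls in the other, and the sets can be told apart from the groups only through the non-met libraries. With a term for the sets 0 of the 9 were called (*Kdr* -0.85, adjusted P = 0.712, and *Nrp1* -1.34, adjusted P = 0.436, by voomLmFit), and likewise 0 with the libraries of the same pool and group summed (-0.31, adjusted P = 0.339, and -0.89, adjusted P = 0.163). *Nrp1* fell by 1.01 on the log2 scale (SE 0.211, voomLmFit adjusted P = 0.011), from a mean of 9.49 ± 0.10 (SD, n = 2) to 8.77 ± 0.43 (SD, n = 3) log2 CPM. It was lower than both controls in 3 of 3 met libraries, as were 12.3% of tested genes. Stromal, osteolineage and perivascular markers were also lower in sum in all 3 met libraries (586 to 3603 CPM) than in the controls (4309.8 and 11495 CPM). So were the 10 sinusoidal markers (6696 to 10266 CPM against 14404 and 15363 CPM), while the 10 arterial markers were higher in all 3 met libraries (1231 to 1455 CPM) than in the controls (684 and 939 CPM). Their part in the result was not tested. The unweighted difference was -0.72 (95% interval -1.75 to 0.30). Its exact permutation P was 0.2, where 0.1 is the smallest that 2 against 3 libraries allow. The quasi-likelihood test, DESeq2 and limma-trend called 0.0837%, 1.91% and 0.0753% of genes but not *Nrp1* (adjusted P of 1, 0.974 and 1) nor any other of the 9. With only the 2 compared groups in the fit the *Nrp1* call was lost (-0.81, adjusted P = 0.312). An unadjusted voomLmFit P under 0.05 was reached by 4 of the 9 and by 14.1% of genes. The call was also lost without control 1 (adjusted P = 0.164), met 1 (0.0778), met 2 (0.0693), met 3 (0.407) or non-met 5 (0.0609), with fitted values of -0.58 to -1.13 in these fits.

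The weighted and unweighted *Kdr* values differed, and the part of the weighting in the call was not tested. The fitted difference was -0.48 (SE 0.062, adjusted P = 2.21e-05), but the unweighted means of met and control were 10.68 and 10.60, a difference of 0.08 (95% interval -0.64 to 0.80, exact permutation P = 0.9). In the fit, control 1 carried 100% of the control weight after rounding and control 2 carried 0.000416%, while met 3 carried 89.1% of the met weight. The quasi-likelihood test, DESeq2 and limma-trend gave 0.03, -0.03 and 0.08, each with an adjusted P of 1. With no sample weights, but with the precision weights of the counts kept, the voomLmFit value was -0.49 and was called (adjusted P = 6.38e-07). With only the 2 compared groups in the fit it was 0.03 (adjusted P = 0.963). Without control 1 the fitted value was 0.38 (adjusted P = 0.263), without met 3 it was -0.18 (0.734), and without non-met 5 it was -0.40 (0.052).

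*Flt1* was the one VEGF gene with all met libraries above both controls, as for 8.43% of tested genes, and *Nrp1* and *Vegfa* were the 2 with all met libraries below, as for 12.3%. The 3 of 9 genes with no overlap stand against 20.7% of all genes. For *Flt1* the fitted difference was 0.69 (SE 0.249, adjusted P = 0.17) and the unweighted one 1.26 (interval 0.24 to 2.28 before adjustment, limma-trend adjusted P = 0.868). Its exact permutation P was 0.1, the smallest possible. Without control 2 the fitted *Flt1* difference was 0.47 and was called by voomLmFit (adjusted P = 0.000884), and with only the 2 compared groups in the fit it was 1.22 and called (adjusted P = 0.0293). Without control 1 it was 1.72 and not called (adjusted P = 0.251). For *Vegfa* the gap was narrow, met 2 having 43.8 CPM and control 1 44.1 CPM, and the fitted difference was -4.15 (SE 2.14, adjusted P = 0.396). *Flt4* (-0.15) and *Nrp2* (-0.16) had unweighted differences of opposite sign, 0.16 and 0.17. *Vegfb* (-4.80), *Vegfc* (-2.17) and *Pgf* (-1.71) had adjusted P of 0.32, 0.746 and 0.802. The size of the ligand values depended on the tool, the quasi-likelihood test giving -1.67 for *Vegfa*, -1.08 for *Vegfb*, -0.09 for *Vegfc* and -0.26 for *Pgf*.

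**Figure D4:**
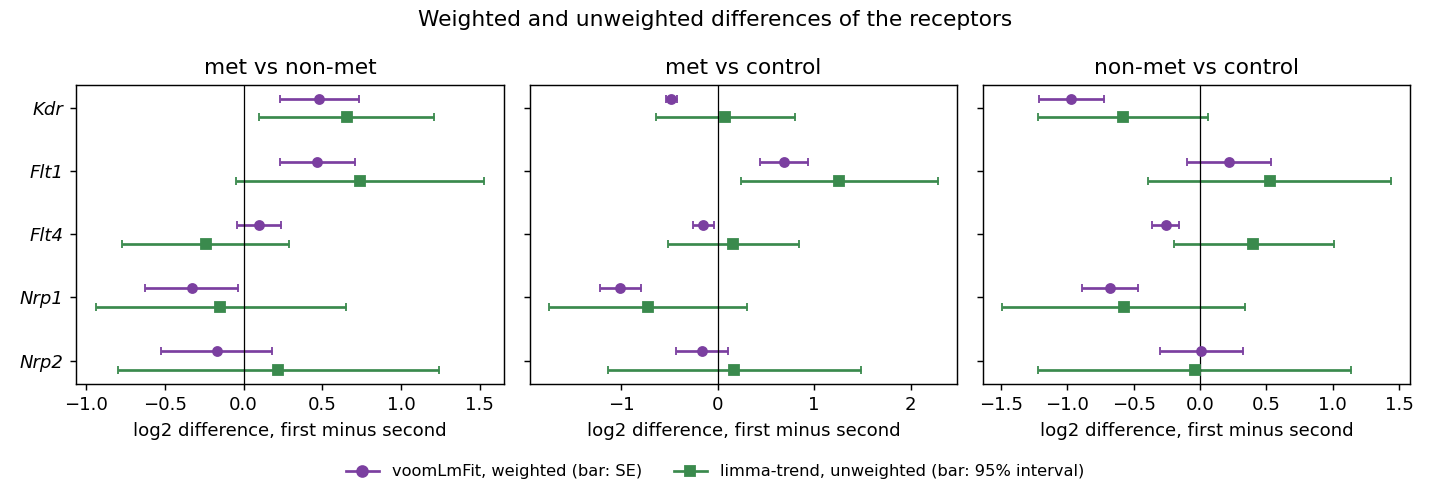
Differences of the receptors and neuropilins in the 3 comparisons, as log2 of the first group over the second. Circles are the weighted voomLmFit values with bars of 1 SE, and squares are the unweighted limma-trend values with 95% intervals. In met against control the weighted *Kdr* value is -0.48 with a narrow bar while the unweighted value is 0.08.

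The comparison of non-met areas with healthy bone called none of the 9 genes, where 0.636% of tested genes were called, and none by the quasi-likelihood test (0.117% of genes), DESeq2 (2.23%) or limma-trend (0.067%). Of the 9, 6 had an unadjusted P under 0.05, against 17% of tested genes, and the median fitted difference over all genes was -0.33, so values below 0 are to be read against that shift. *Nrp1* was lower in all 6 non-met libraries than in both controls, as were 5.03% of genes (6.29% had no overlap in either direction). Its fitted difference was -0.68 (SE 0.21, adjusted P = 0.11) and its unweighted one -0.57 (exact permutation P = 0.0714). *Kdr* differed by -0.97 (SE 0.243, adjusted P = 0.0629), unweighted by -0.58 (interval -1.22 to 0.06), and it was called without control 2 (-0.96, adjusted P = 0.000146), met 2 (0.0347), met 3 (0.0398) or non-met 6 (0.0486). Without control 1 the *Kdr* value was -0.13 (adjusted P = 0.704). *Kdr* was also called with the libraries of the same pool summed (-0.87, adjusted P = 0.0314), with no sample weights (-0.98, adjusted P = 0.0212), and with RLE (-0.85, adjusted P = 0.0295) or library size scaling (-1.13, adjusted P = 0.00498). With library size scaling *Nrp1* (-0.84, adjusted P = 0.0287) and *Flt4* (-0.47, adjusted P = 0.00242) were called too. *Flt4* differed by -0.26 (adjusted P = 0.198) in the fit and by 0.40 unweighted, and was called without control 2 (-0.26, adjusted P = 0.0106). *Flt1* (0.22) and *Nrp2* (0.01) had adjusted P of 0.685 and 0.988.

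*Vegfb*, *Vegfc* and *Pgf* had their lowest group means in the non-met libraries. *Vegfb* differed from the controls by -5.16 (SE 1.41, adjusted P = 0.0784), *Pgf* by -4.83 (SE 1.7, adjusted P = 0.153) and *Vegfc* by -4.04 (SE 1.91, adjusted P = 0.286), with exact permutation P of 0.0714, 0.0714 and 0.25. The quasi-likelihood test and DESeq2 gave -2.95 and -3.03 for *Vegfb*, -5.48 and -5.58 for *Pgf*, and only -0.93 and -0.88 for *Vegfc*. *Vegfa* differed by -0.50 (adjusted P = 0.823). The met and non-met comparisons with healthy bone share the same 2 control libraries. By the exact permutation test with adjustment over all genes, 0 genes were called in met against non-met and in non-met against control. An unadjusted P under 0.05 was reached there by 3.75% and 4.28% of genes. In met against control no gene could pass at 0.05, since the smallest possible P is 0.1.

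The partners of the receptors were followed in lists of other VEGF pathway genes. Their counts stand beside 0.276% of all tested genes called higher in met against non-met, 0.686% higher and 0.511% lower in met against control, and 0.184% higher and 0.452% lower in non-met against control. Their medians stand beside 0.08, -0.09 and -0.33 over all genes in the 3 comparisons. Of 26 tested genes for receptor trafficking and phosphatases, 2 rose in met against non-met and the same 2 in met against control. *Ptprb*, which encodes the endothelial phosphatase VE-PTP, rose by 1.14 (SE 0.172, adjusted P = 0.000503) and by 1.01 (adjusted P = 5.56e-16). *Cdh5*, VE-cadherin, which binds VEGFR2 at junctions, rose by 0.56 (adjusted P = 0.0159) and by 0.12 (adjusted P = 0.00426). The latter value was 0.61 unweighted and 0.96 without control 1. With no sample weights it was 0.12 and was called by voomLmFit (adjusted P = 0.00015). The list's median was 0.50 in met against non-met, beside 0.08 over all genes, and 0.32 against control, beside -0.09. With mouse pool as a fixed block the met to non-met values were 0.03 for *Ptprb* and 0.33 for *Cdh5*, and neither was called. With the library set term *Ptprb* was at 0.54 (adjusted P = 0.926) against non-met and 0.29 (adjusted P = 0.899) against control, and *Cdh5* at 0.14 (adjusted P = 0.978) and -0.39 (adjusted P = 0.799), so all 4 calls were lost. With the libraries of the same pool and group summed, both *Ptprb* calls held and both *Cdh5* calls were lost (0.52, adjusted P = 0.289, and 0.27, adjusted P = 0.269). General endothelial sums, of which *Cdh5* is a member, were higher in all met libraries (16026 to 20223 CPM) than in the controls (10236 and 14089 CPM), and granulocyte sums were lower in met (95.5 to 207 CPM) than in non-met (403 to 5136 CPM). Their part in these calls was not tested. The *Ptprb* call in met against non-met was also lost without non-met 2 (1.15, adjusted P = 0.074) or met 3 (0.65, adjusted P = 0.0751), and that against control without control 1 (1.40, adjusted P = 0.128). Without met 3 the latter was 0.52 and was called (adjusted P = 0.0358). The *Cdh5* call in met against non-met was lost without non-met 1, 2 or 5 or met 1 or 3 (adjusted P of 0.0606 to 0.161), and that against control without met 1, 2 or 3 or non-met 5 (0.0991 to 0.257). With the left-out genes kept, *Cdh5* was called in neither (adjusted P of 0.0544 and 0.129), and against control it was also not called with library size scaling (0.06, adjusted P = 0.0906) or only the 2 groups in the fit (adjusted P = 0.275).

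Among 13 tested co-ligands and matrix partners, 2 rose in met against both other groups. General endothelial and arterial sums, given above, were also higher in all met libraries than in both controls. Granulocyte sums were lower in met than in non-met. Their part in these rises was not tested. *Mcam* (CD146), described as a co-receptor of VEGFR2, was higher than in the controls by 2.65 (SE 0.544, adjusted P = 0.0095), and the quasi-likelihood test (0.0358), DESeq2 (6.23e-05) and limma-trend (0.0142) also called it. It was at 10.27 ± 0.33 (SD, n = 3) in met, 9.36 ± 0.51 (SD, n = 6) in non-met and 7.66 ± 0.83 (SD, n = 2) log2 CPM in control libraries. Without control 1 the *Mcam* difference from control was 3.53 (adjusted P = 0.288). Against non-met it was 1.10 (adjusted P = 0.0435), a call that held only without control 1, control 2, non-met 3 or met 2 when 1 library was left out, and 0.30 with the pool block. *Hspg2*, the heparan sulphate proteoglycan perlecan, was higher by 0.63 (adjusted P = 0.0121) and 0.78 (adjusted P = 2.47e-21). The latter call was lost without control 1 (1.96, adjusted P = 0.537) or control 2 (0.81, adjusted P = 0.402). The former was 1.43 without non-met 2 and 0.36 without non-met 1, both called, and 0.23 with the pool block, where it was not called (adjusted P = 1). With the library set term no call of either gene held, with *Mcam* at 2.18 (adjusted P = 0.32) and *Hspg2* at 0.49 (adjusted P = 0.823) against control and 0.80 and 0.51 (adjusted P of 0.926 for both) against non-met. With the libraries of the same pool and group summed, the *Mcam* call against non-met was lost (0.99, adjusted P = 0.124), and so it was with only the 2 groups in the fit (1.09, adjusted P = 0.0648), with RLE scaling (0.96, adjusted P = 0.0811) and with the left-out genes kept (1.09, adjusted P = 0.103). *Hspg2* too was not called against non-met with the left-out genes kept (adjusted P = 0.0626). The list's medians were 0.45 and 0.78, beside 0.08 and -0.09 over all genes.

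Class 3 semaphorins compete with VEGF for neuropilins. Of 11 tested semaphorins and plexins, *Sema3a* rose in met (1.25, adjusted P = 0.012) and in non-met (1.59, adjusted P = 0.000567) against control, at 9.13 ± 0.04 (SD, n = 3), 9.68 ± 0.44 (SD, n = 6) and 7.94 ± 0.13 (SD, n = 2) log2 CPM. DESeq2 also called *Sema3a* in non-met (adjusted P = 0.00123). *Sema3f*, a neuropilin-2 ligand, rose in met against control (1.38, adjusted P = 0.0109). *Plxnd1* was called lower (-0.56, adjusted P = 7.82e-05) although its unweighted difference was -0.02. No member of the list was called in met against non-met. The list's medians were -0.22, 1.21 and 0.49 in the 3 comparisons, beside 0.08, -0.09 and -0.33 over all genes.

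Of 37 tested signal transduction genes 1 was called, *Rasip1*, a regulator of endothelial lumen formation, higher in met against control (0.68, adjusted P = 0.0027), and the list's medians were 0.03, 0.08 and 0.00. Of 20 early-response genes, none was called in met against non-met, while *Adamts1* rose (0.70, adjusted P = 0.000852) and *Egr1* fell (-1.87, adjusted P = 0.00376) in met against control. *Egr1*, an immediate early transcription factor, also fell in non-met against control (-1.93, adjusted P = 0.0105), and the tip cell gene *Esm1* did so (-5.94, adjusted P = 0.0417). The early-response medians were 0.36, -0.55 and -0.67, beside 0.08, -0.09 and -0.33 over all genes. Of these 20 genes, 3 had all met libraries above both controls and 6 had all below, beside 8.43% and 12.3% of all genes, and 4 had all non-met libraries below both controls, beside 5.03%. The other lists gave, in met against control, 6 above and 1 below of 26 for trafficking and phosphatases, 5 and 2 of 13 for co-ligands, 4 and 2 of 11 for semaphorins, 5 and 2 of 37 for signal transduction and 3 and 1 of 9 for hypoxia sensing. The value of *Esm1* depended on the tool, at -2.52 by the quasi-likelihood test and -2.45 by DESeq2, and its call was lost with no sample weights (adjusted P = 0.0857), RLE scaling (0.0595), a mean of 5 CPM (0.0806) and the left-out genes kept (0.0614). The 10 tip cell markers, *Esm1* among them, summed to 5189 and 9721 CPM in the controls, 6813 to 14958 CPM in non-met and 12129 to 18731 CPM in met libraries, so that all met sums exceeded both controls. None of 9 tested hypoxia sensing genes upstream of *Vegfa* was called, with medians of 0.15, 0.37 and -0.21. Apart from *Mcam* against control and *Sema3a* in non-met, no pathway gene named here was called by the quasi-likelihood test, DESeq2 or limma-trend in the same comparison, and without control 1 or met 3 the calls of *Rasip1*, *Adamts1*, *Egr1*, *Sema3a*, *Sema3f* and *Plxnd1* in met against control were lost (adjusted P of 0.0505 to 0.845). Without met 2 those of *Rasip1* (0.164), *Egr1* (0.0891), *Sema3a* (0.0891) and *Sema3f* (0.0621) were lost. With the library set term all 6 were lost (adjusted P of 0.318 to 0.99), *Rasip1* going to 0.05. With the libraries of the same pool and group summed, *Egr1* alone of the 6 was called (-1.75, adjusted P = 0.0231), the others having adjusted P of 0.0801 to 0.261. *Egr1* alone was also called with only the 2 compared groups in the fit (adjusted P = 0.00349), the others having adjusted P of 0.0549 to 0.947. In non-met against control the call of *Sema3a* was lost without control 1 (0.24), that of *Egr1* without non-met 2 (0.0984) and that of *Esm1* without non-met 2 (0.0927), 4 (0.118) or 6 (0.136). With the set term *Egr1* (0.13) and *Esm1* (0.512) lost their calls there, as they did with summed libraries (0.0577 and 0.233), and *Sema3a* kept its call under both (0.00718 and 0.00451).

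The genes most like each receptor were found by Pearson correlation of log2 CPM over the 11 libraries, among 3565 genes of sufficient level. They are given as a description, since libraries share pools and differ in depth. *Kdr* was closest to *Ednrb* (r = 0.90), *Eng* (0.86) and *Arid4b* (0.84), of which *Eng* encodes the endothelial co-receptor endoglin. *Flt1* was closest to *Glo1* (0.92), *Fubp3* (0.91) and *Cd200* (0.90), and *Flt4* to *Ctdspl2* (0.87), *Lmf2* (0.86) and *Prss23* (0.83). *Nrp1* was closest to *Cebpg* (0.84), *Abi3* (0.81) and *Hid1* (0.81), and *Nrp2* to *Naa50* (0.93), *Nedd9* (0.92) and *Crk* (0.91). *Vegfa* was closest to *Trap1* (0.87), *Stap2* (0.87) and *Pea15a* (0.85). *Vegfb* and *Vegfc* shared *Cd81* among their nearest 3 (0.77 and 0.83), and *Pgf* was closest to *Sbno1* (0.77). No receptor was among the nearest 3 of another.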

How the data were processed

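Per the study's methods the authors aligned reads of low-input full-length libraries (SMART-Seq v4) to mm10 with Rsubread and assigned them to Entrez genes with featureCounts. The files were deposited as whole-number counts per gene, not normalised, and the 11 single-library tables equal the series table. Strand use in counting is not stated.

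Symbols came from RefSeq (25275 of 27179 IDs) and GENCODE (18). IDs without a name (1886), ribosomal RNA (35) and predicted genes (1794) were left out, with 1.94% to 15.7% of the counts of a library. The 23464 others entered filterByExpr (minimum count 10, minimum total 15), TMM scaling and voomLmFit with sample weights (edgeR 4.0.16, limma 3.58.1, R 4.3.3), the authors' stated test, as 1 model of 3 groups. P values were adjusted by Benjamini-Hochberg over 11949 genes with a threshold of 0.05. Log2 CPM used a prior count of 2, and RPKM the exon lengths of the table. Single values were also compared by exact two-sided permutation over 84, 10 and 28 splits, with smallest P of 0.0119, 0.1 and 0.0357, run on every tested gene. The scripts were tested on simulated data.

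The VEGF genes and all gene lists were chosen with earlier results of these data known. Genes named are the 9 VEGF genes, up to 3 called genes per direction, pathway list and comparison with the smallest adjusted P, the 3 genes most correlated with each VEGF gene (mean log2 CPM of at least 5), the sort markers and the cell type markers.

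Other settings tried were limma-trend on unweighted log2 CPM, DESeq2 1.42.0, the quasi-likelihood test of edgeR, no sample weights, RLE or library size scaling, no filter, a mean of at least 5 CPM, inclusion of the left-out genes, a random or a fixed block for mouse pool, sums over the libraries that share a pool and a group, only the compared groups, a term for library sets found in an earlier analysis of these counts, and each library left out. For group means of log2 CPM a prior count of 0.5 and library size scaling were tried. Pools pair libraries of the same animals. Rank correlations of deviations from group means, over genes, were -0.0204 to 0.0217 for the 4 pairs of met and non-met libraries of one pool. For met and non-met libraries of the same number, which are from different pools, they were 0.000591 to 0.0706. For the non-met pairs of pools 1 and 2 they were -0.214 and -0.168, where deviations from a shared mean sum to 0. Intervals and floors cover counting error or the spread between these libraries only.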

Additional observations from a re-analysis of the deposited data

Results flagged for a closer look

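Among the 9 groups of 6 non-met libraries checked for a single library apart from the rest (1 per gene, with chance giving about 1 in 20), 2 stood out, both through non-met 2. *Vegfb* was at 5.66 log2 CPM there, and the other 5 libraries lay between -1.49 and 1.12. *Pgf* was at 1.94 log2 CPM there from 24 reads, and the other 5 libraries were at -1.49, the value of 0 reads. With 5 libraries tied, any *Pgf* read in the sixth would have made it stand out, so the chance rate does not apply to *Pgf*. Non-met 2 is the deepest non-met library, and met 1, from the same mouse pool, also held both genes, at 6.66 and 5.92 log2 CPM.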

How the results depend on the processing

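In met against non-met, 0 of the VEGF genes tested (9, or 8 with the fixed pool block or only 2 groups, and 7 with an adjusted P by DESeq2) were called in each alternative fit other than leaving out control 1 (1, *Kdr*). In met against control 2 were called (*Kdr*, *Nrp1*), 0 by the quasi-likelihood test, DESeq2, limma-trend, summed libraries and the library set term, and 1, *Flt1* rather than these, with only 2 groups. In non-met against control 0 were called, 1 (*Kdr*) without sample weights, with RLE scaling or summed libraries, and 3 (*Kdr*, *Nrp1*, *Flt4*) with library size scaling. Over 24 alternatives the *Nrp1* value in met against control ran from -1.34 to -0.58 with adjusted P of 0.00123 to 1, and *Kdr* from -0.85 to 0.38 with 4.44e-08 to 1. The causes of these changes were not tested.

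Counts of called genes were 50, 143 and 76 in the 3 comparisons by voomLmFit. The quasi-likelihood test gave 17, 10 and 14, DESeq2 326, 228 and 267, limma-trend 2, 9 and 8, no filter 79, 429 and 184, summed libraries 24, 55 and 33, and the set term 9, 4 and 20. No sample weights gave 274 and 140 against control, 2 groups gave 80 in met against control, and library size scaling (160) and a mean of 5 CPM (35) moved non-met against control. Leaving out 1 library gave 16 (without met 3) to 87 (without control 1) genes with 0 to 1 VEGF genes in met against non-met, 36 (without met 3) to 293 (without control 2) with 0 to 3 in met against control, and 32 (without non-met 5) to 228 (without control 2) with 0 to 2 in non-met against control. A fit without a control treats the other as varying like the burdened libraries.

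The mouse pool as a fixed replicate block, possible only for met against non-met, gave 27 called genes and no VEGF gene, and the random block changed no VEGF call.

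With a prior count of 0.5 the group means of log2 CPM moved by less than their SD, other than *Pgf* in non-met, which went from -0.91 to -2.60.

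Signs turned as follows, none of them past the threshold after the turn. In met against non-met, *Flt4* was -0.25 (quasi-likelihood), -0.43 (DESeq2), -0.24 (limma-trend and the fixed pool block), 0.00 (summed) and -0.12 (set term). *Nrp2* was 0.01 (quasi-likelihood) and 0.22 (limma-trend), and *Vegfb* -0.14 (mean of 5 CPM) and -0.49 (summed). In met against control, *Kdr* was 0.03 (quasi-likelihood and 2 groups) and 0.08 (limma-trend). *Flt4* was 0.10, 0.04, 0.16, 0.01 and 0.19, and *Nrp2* 0.18, 0.11, 0.17, 0.02 and 0.15, by quasi-likelihood, DESeq2, limma-trend, summed libraries and 2 groups. *Cdh5* was -0.39 with the set term. In non-met against control, *Flt4* was 0.35, 0.47, 0.40 and 0.02 by quasi-likelihood, DESeq2, limma-trend and summed libraries, *Vegfa* 0.42, 0.51 and 0.77 by quasi-likelihood, DESeq2 and the set term, and *Flt1* -0.05 with library size scaling. *Nrp2*, at 0.01, was -0.04 (limma-trend), -0.07 (no weights), -0.16 (library size), -0.03 (no filter), -0.01 (mean of 5 CPM, all genes kept or 2 groups) and 0.00 (random block or set term). With 1 library left out the ranges were -0.02 to 0.16 (*Flt4*), -0.50 to 0.10 (*Nrp1*), -0.34 to 0.22 (*Nrp2*) and -2.41 to 2.94 (*Vegfb*) in met against non-met. They were -0.52 to 0.38 (*Kdr*), -0.29 to 0.82 (*Flt4*), -0.33 to 0.34 (*Nrp2*), -3.0 to 0.70 (*Vegfc*), -3.77 to 1.23 (*Pgf*) and -0.63 to 0.22 (*Plxnd1*) in met against control. In non-met against control they were -0.03 to 1.25 (*Flt1*), -0.29 to 0.66 (*Flt4*), -0.20 to 0.48 (*Nrp2*) and -1.13 to 0.21 (*Vegfa*).

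RLE scaling moved the median gene by -0.18 and -0.11 log2 in met against non-met and met against control, and library size scaling by -0.17 and -0.22 against control in met and non-met. The share of called genes that were higher was 66%, 57.3% and 28.9%, and 53.3% with RLE scaling in met against non-met, 46.3% with library size scaling in met against control and 13.8% in non-met against control. Other tools split the calls otherwise. In met against non-met DESeq2 called 21 higher and 305 lower, the quasi-likelihood test 3 and 14, limma-trend 0 and 2, the set term 2 and 7 the fixed pool block 3 and 24 and left-out genes kept 20 and 18, against 33 and 17 by voomLmFit. In non-met against control DESeq2 called 263 higher and 4 lower, the quasi-likelihood test 11 and 3, limma-trend 6 and 2, the set term 14 and 6, a mean of 5 CPM 18 and 17 and summed libraries 21 and 12, against 22 and 54. In met against control the quasi-likelihood test gave 7 and 3, limma-trend 7 and 2, the set term 1 and 3, no filter 171 and 258, and summed libraries 41 and 14, against 82 and 61. Depth limits the ligands: 3 reads stood for 0.147 to 5.43 CPM, so absence of a ligand below that was not detectable.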
